A study of Mus musculus with 8 samples.

Results

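Transcripts of 9 enzymes that make pyrimidine nucleotides and deoxynucleotides were compared in the ventricular part of the mouse heart at embryonic day 11.5. Control embryos were set against embryos labelled as knockouts of the transcription factor ATF4. The enzymes are encoded by Cad, Dhodh, Umps, Ctps, Tyms, Rrm1, Rrm2, Tk1 and Dut, which were chosen by gene symbol and make up 9 of the 52778 features in the expression table. The control group held 4 libraries labelled as wild type on a C57BL/6 background. The mutant group held 4 libraries from embryos labelled as global ATF4 knockouts, homozygous for a CRISPR/Cas9 deletion of 7 base pairs in exon 3 of Atf4 that shifts the reading frame. No embryo was treated, all 8 samples carry batch label 1, and the libraries are described as biological replicates without a statement on whether each came from 1 embryo or from a pool. The genotype field of the mutant samples also reads wild type, so their genotype rests on the sample titles and the treatment field.

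Cells build pyrimidines from glutamine, bicarbonate and aspartate. CAD carries the opening reactions on a single polypeptide, DHODH oxidises dihydroorotate in the inner mitochondrial membrane, UMPS completes UMP, and CTP synthase converts UTP to CTP with glutamine as the nitrogen donor. Ribonucleotide reductase then turns ribonucleotides into the deoxynucleotides of DNA, dUTPase and thymidylate synthase lead to dTMP, and thymidine kinase 1 recovers thymidine from outside the pathway. The genes of the deoxynucleotide branch are known for high transcript levels in S phase, and the embryonic ventricle at this stage grows largely by division of its cardiomyocytes. ATF4 itself drives genes for amino acid synthesis and import, among them genes of mitochondrial folate metabolism.

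Expression was given as TPM, an abundance scaled for transcript length and library, so levels can be compared between genes. Each library held between 923473 and 949762 TPM in total, and the read depth behind the values is unknown. The spread between libraries of a group is therefore the error used here. Atf4 itself was measured at 105 to 121 TPM in controls and at 148 to 185 TPM in mutants, so its transcript gives no evidence on the protein. The protocol attached to the samples names cultured cortical neurons, but of 7 neuronal markers 5 stayed under 1 TPM in every library, Neurod6, Tbr1 and Slc17a7 of cortical neurons among them. The other two, Tubb3 and Stmn2, held 7.06 to 11.8 TPM and 1.06 to 1.76 TPM. The 9 cardiomyocyte markers, Tnnt2 and Myh7 among them, summed to between 25353 and 27739 TPM.

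None of the 9 enzyme transcripts differed between genotypes beyond the spread of the replicates. In all, 0 of 9 passed an adjusted p of 0.05 in limma (Benjamini-Hochberg over 15545 genes tested), where 0.0386% of all tested genes passed. At an unadjusted p below 0.05 the count was also 0 of 9, against 6.10% of all genes. In 0 of 9 did the control and mutant values fail to overlap, against 3.68% of all genes. The log2 fold change was above 0 in 8 of the 9 and below 0 in Tk1, with a median of 0.050, while 48.2% of all tested genes lay above 0 and their median was -0.0033. All 9 were expressed in every library and all were tested.

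**Figure D1:**
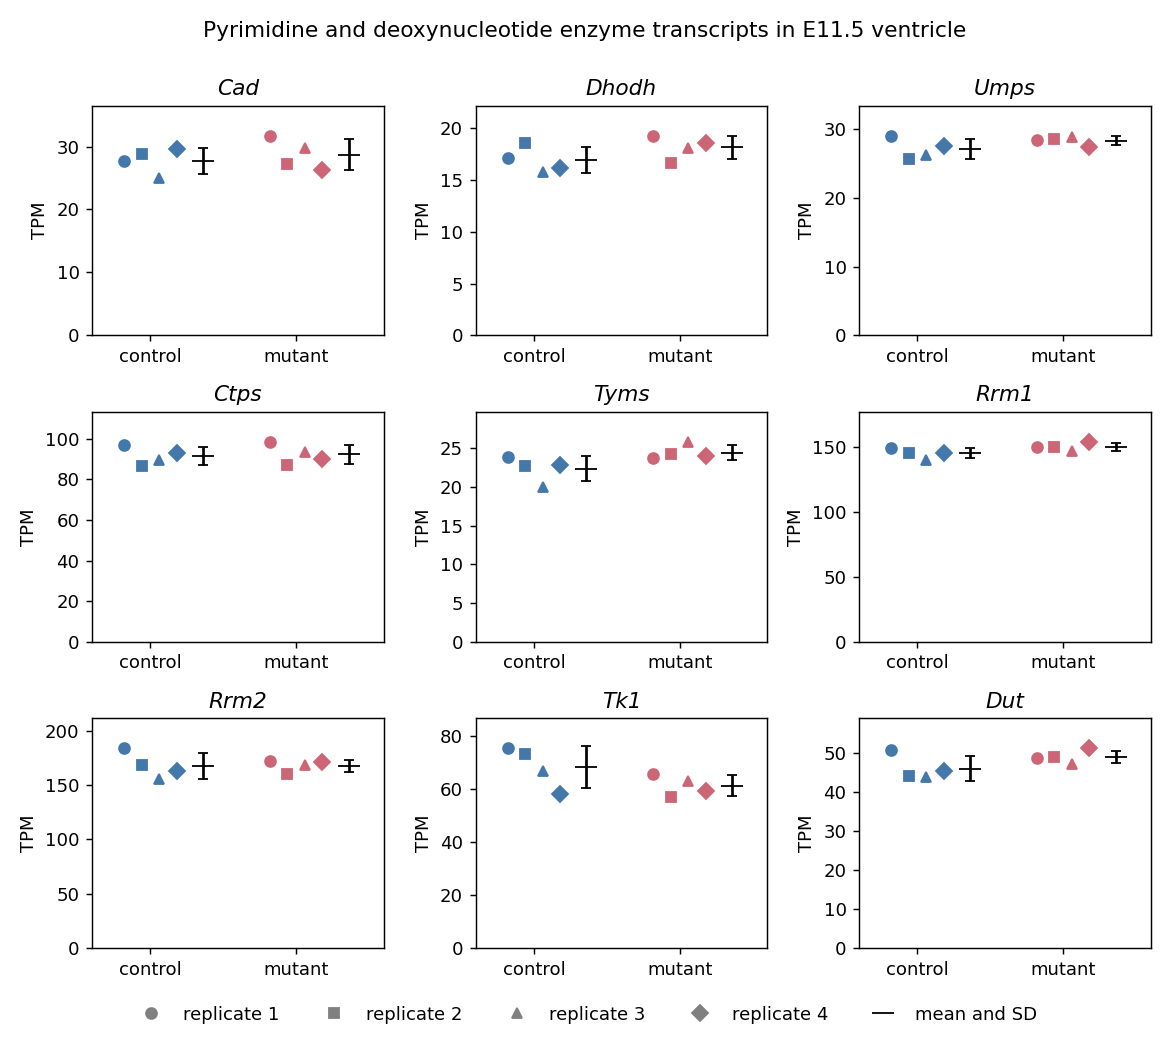
TPM (vertical axis, from 0) of each of the 9 enzyme transcripts in the 4 control (blue) and 4 mutant (red) libraries, with marker shapes for the replicate number and a black bar for the mean and SD of each group. The groups overlap in every panel. Tk1 ran from 57.9 to 75.2 TPM among the controls alone, and its mutant values from 56.9 to 65.7 TPM lay within or just under that range.

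The levels differed widely between the enzymes and little between libraries. Rrm2 was the most abundant, with a mean over the 8 libraries of 168 ± 8.69 TPM (SD, n = 8), followed by Rrm1 at 147 ± 4.20 TPM, Ctps at 91.9 ± 4.25 TPM, Tk1 at 64.7 ± 6.82 TPM and Dut at 47.5 ± 2.86 TPM. The 3 enzymes of UMP synthesis and thymidylate synthase were lower, with Cad at 28.2 ± 2.18 TPM, Umps at 27.7 ± 1.26 TPM, Tyms at 23.4 ± 1.67 TPM and Dhodh at 17.5 ± 1.28 TPM. Each gene lay above the next in this order in 8 of 8 libraries, except that Cad exceeded Umps in only 4 of 8, so these neighbours were not separated. The ranges of Umps and Tyms overlapped across libraries although Umps was higher within each one. Among all tested genes, Rrm1 stood at the 94.2th percentile of mean TPM and Dhodh at the 52.8th.

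The enzymes of UMP and CTP synthesis were examined first. Cad (chromosome 5, bases 31054620 to 31078479, plus strand, GRCm38) held 27.6, 28.9, 24.9 and 29.7 TPM in control replicates 1 to 4 and 31.7, 27.2, 29.7 and 26.2 TPM in mutant replicates 1 to 4. Both groups had a low library and a high library, and only 2 of 4 mutants exceeded the control mean. The difference, as a log2 fold change of TPM + 1, was 0.045 (standard error 0.072, 95% interval from -0.12 to 0.21, limma adjusted p of 0.960). Cad shares 14 bases with Atraid on the same strand, which averaged 48.9 TPM.

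Dhodh (chromosome 8, bases 109593244 to 109608699, minus strand) held 17.1, 18.6, 15.7 and 16.2 TPM in the controls and 19.3, 16.6, 18.0 and 18.6 TPM in the mutants. The 2 highest values were mutants and the 2 lowest were controls, with overlap between. On the log2 scale the difference was 0.097 (standard error 0.066, interval from -0.051 to 0.24, adjusted p of 0.890).

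Umps (chromosome 16, bases 33954782 to 33967038, minus strand) held 29.0, 25.6, 26.3 and 27.5 TPM in the controls and 28.4, 28.6, 28.9 and 27.4 TPM in the mutants. The mutants were tightly grouped and all lay above the control mean of 27.1 TPM, but the highest single value was control replicate 1. This gave a log2 fold change of 0.062 (standard error 0.048, interval from -0.045 to 0.17, adjusted p of 0.903).

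Ctps (chromosome 4, bases 120539868 to 120570276, minus strand) encodes CTP synthase 1, whose product feeds RNA, phospholipid and DNA synthesis. It held 96.8, 86.7, 89.4 and 92.8 TPM in the controls and 98.4, 87.3, 93.4 and 90.2 TPM in the mutants. The sets of values nearly coincided, with a log2 fold change of 0.014 (standard error 0.048, interval from -0.093 to 0.12, adjusted p of 0.986). On this scale the interval corresponds to a change between -6.24% and 8.72%.

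The promoters of the enzymes of both branches were read from RefSeq, because genes of the deoxynucleotide branch are commonly regulated together through a few short elements. The table of windows on GRCm38.p6, each spanning 250 bases before to 50 bases after an annotated start, matched 8 of the 9 genes with 9 windows. The start of the window was the outer end of the gene in 4 of them, those of Rrm1, Rrm2 and Umps included, and lay 20 to 817 bases inside the gene in the other 5. For Tyms it was base 30073625, which is 20 bases inside the gene. Motifs were searched on both strands. CCAAT, the letters bound by the factor NF-Y, was found in 2 of the 9 windows and in 37.4% of all 32851 windows. The 2 were those of Rrm1 and Rrm2, the pair that encodes ribonucleotide reductase. CACGTG, the E-box of the Myc and USF families, was found in 1 of the 9 windows, that of Tyms, and in 7.15% of all windows. The stretches follow, 5′ to 3′ on the strand of the gene, with the motif in capitals; they lie at chr7:102441592-102441621 (plus strand), chr7:102441638-102441667 (plus strand), chr12:24708192-24708221 (plus strand) and chr5:30073669-30073698 (minus strand).
Rrm1, CCAAT beginning 91 bases before the start: gcttgcccacacCCAATatggcggcaggag
Rrm1, CCAAT beginning 45 bases before the start: gtccgctttcacCCAATgtggtggaaagga
Rrm2, CCAAT beginning 50 bases before the start: ggtcagcggcgtCCAATgggaggcgaggcc
Tyms, CACGTG beginning 61 bases before the start of its window's transcript: aaccacttctgtCACGTGggggcggggtct

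The element TGATGNAA, which ATF4 binds as a partner of C/EBP factors, was in 0 of the 9 windows and in 3.97% of all windows. The cyclic AMP response element TGACGTCA was in the Umps window alone among the 9, just downstream of the start, and in 1.79% of all windows. The E2F forms TTTCCCGC, TTTGGCGC, TTTGCCGC and TTTCGCGC were in 0 of the 9 windows, and at least 1 of the 4 forms was in 2.26% of all windows. An absent match says only that these exact letters do not occur in these windows. For Dut and for 1 of the Ctps windows, the annotated start lay 267 and 817 bases inside the gene. Those windows therefore hold no bases before the outer end of the gene.

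Ribonucleotide reductase is built from the large catalytic subunit RRM1 and, in cycling cells, the small radical-bearing subunit RRM2. Rrm1 (chromosome 7, bases 102441695 to 102469771, plus strand) held 149, 145, 140 and 145 TPM in the controls and 150, 150, 147 and 154 TPM in the mutants. In 3 of 4 mutants it lay above every control, yet control replicate 1 exceeded the lowest mutant. Its log2 fold change came to 0.050 (standard error 0.031, interval from -0.020 to 0.12, adjusted p of 0.865). Rrm1 varied little, with a residual SD at the 2.15th percentile of all tested genes, a percentile not matched for level.

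Rrm2 (chromosome 12, bases 24708254 to 24714146, plus strand), the subunit whose level limits the enzyme outside S phase, held 184, 169, 155 and 163 TPM in the controls and 172, 160, 169 and 171 TPM in the mutants. The controls included both the highest and the lowest value of the 8, and the mutants sat between them. The means differed by 0.0036 on the log2 scale (standard error 0.051, interval from -0.11 to 0.12, adjusted p of 0.998), which corresponds to a change between -7.42% and 8.55%.

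Dut (chromosome 2, bases 125247248 to 125259049, plus strand), for the dUTPase that keeps uracil out of DNA, held 50.7, 44.2, 43.8 and 45.3 TPM in the controls and 48.7, 49.0, 47.3 and 51.3 TPM in the mutants. In 3 controls Dut lay below every mutant, while control replicate 1 lay among them. A log2 fold change of 0.092 resulted (standard error 0.052, interval from -0.025 to 0.21, adjusted p of 0.856). Without control replicate 1 the value was 0.14, with an unadjusted p of 0.00947 and an adjusted p of 0.843 in limma. At the other end of the fits that left out 1 library it was 0.069, without control replicate 3.

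Tyms (chromosome 5, bases 30038546 to 30073645, minus strand), for the thymidylate synthase that methylates dUMP, held 23.8, 22.7, 20.0 and 22.8 TPM in the controls and 23.7, 24.3, 25.8 and 24.0 TPM in the mutants. The lowest mutant and the highest control differed by little, and control replicate 3 was the lowest of all. This was the smallest unadjusted p among the 9, at 0.0596, with a log2 fold change of 0.13 (standard error 0.059, interval from -0.0062 to 0.26, limma adjusted p of 0.832). With 1 library left out the log2 fold change ran from 0.076, without control replicate 3, to 0.16, without control replicate 1. The processed pseudogene Tyms-ps averaged 0.0954 TPM.

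Tk1 (chromosome 11, bases 117815519 to 117826087, minus strand), for the cytosolic thymidine kinase of the salvage route, was the 1 member with a lower mean in the mutants. It held 75.2, 73.0, 66.7 and 57.9 TPM in the controls and 65.7, 56.9, 62.9 and 59.2 TPM in the mutants. All 4 mutants lay below the control mean of 68.2 TPM, but control replicate 4 was lower than 3 of them. Mutants minus controls gave -0.15 on the log2 scale (standard error 0.081, interval from -0.33 to 0.031, adjusted p of 0.843). Without control replicate 4 the value was -0.23, with an unadjusted p of 0.00576 and an adjusted p of 0.613 in limma. At the other end of the fits that left out 1 library it was -0.10, without control replicate 1. Tk1 shares 585 bases with Afmid on the opposite strand, which averaged 13.8 TPM, and the counting of reads from opposite strands is not given in the sources used here.

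**Figure D2:**
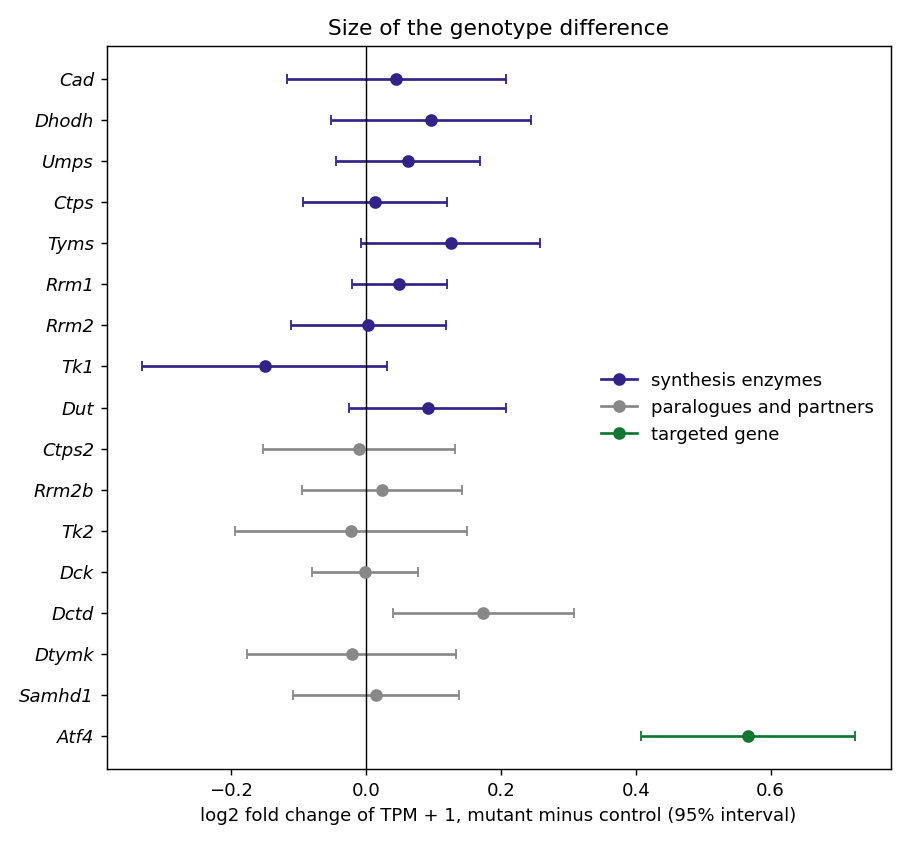
Log2 fold change of TPM + 1, mutant minus control (horizontal axis), with its 95% interval from limma, for the 9 enzymes (dark blue), 7 paralogues and partners (grey) and Atf4 (green). Every interval of the 9 enzymes includes 0, and the widest reaches from -0.33 to 0.031 for Tk1. The interval of Dctd, from 0.040 to 0.31, lies above 0 without adjustment for the number of genes tested.

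The intervals set what these data could have missed. Over the 9 enzymes the lowest bound was -0.33 for Tk1, a fall of 20.5%, and the highest was 0.26 for Tyms, a rise of 19.6%. Differences within those bounds were not distinguishable from replicate spread with 4 libraries a group, and the absence of a call does not show equal levels. In 7 of the 9 the residual SD was below the median of all tested genes, which was 0.103 on the log2 scale.

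Several of these enzymes have a paralogue that works outside S phase or in mitochondria, and its share was compared within each library. Rrm2b, the small subunit used by resting cells and under p53, averaged 18.3 ± 0.862 TPM in controls and 18.7 ± 0.844 TPM in mutants (SD, 4 libraries each). Rrm2 exceeded it 8.52 to 9.47 times in the controls and 8.61 to 9.59 times in the mutants. Tk2, the mitochondrial thymidine kinase, held 9.40 ± 0.679 and 9.25 ± 0.819 TPM, and Tk1 exceeded it 6.02 to 8.48 times in the controls and 6.28 to 6.97 times in the mutants. Ctps exceeded its paralogue Ctps2 6.88 to 7.60 times in the controls and 6.49 to 7.97 times in the mutants. The S phase or type 1 form was thus the larger in every library of both genotypes, and each pair of ranges overlapped.

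The proportions of partner enzymes also overlapped between genotypes. Rrm2 to Rrm1, the small to the large subunit, averaged 1.16 ± 0.0551 in controls and 1.12 ± 0.0394 in mutants (SD, 4 libraries each). For the 4 ratios, each tested as a log2 ratio of TPM + 1 by exact two-sided permutation over 70 assignments, the difference between genotypes ran from -0.13 for Tk1 to Tk2 (exact p of 0.286) to 0.024 for Ctps to Ctps2 (exact p of 0.80). Adjusted over the 4, the exact permutation p-values were at least 0.686, and 0.0286 is the smallest unadjusted value that 4 against 4 libraries allow. Without control replicate 4 the difference for Tk1 to Tk2 was -0.21, with an exact permutation p of 0.0286, the smallest possible and unadjusted, so that control library decides on which side of 0.05 this ratio falls.

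**Figure D3:**
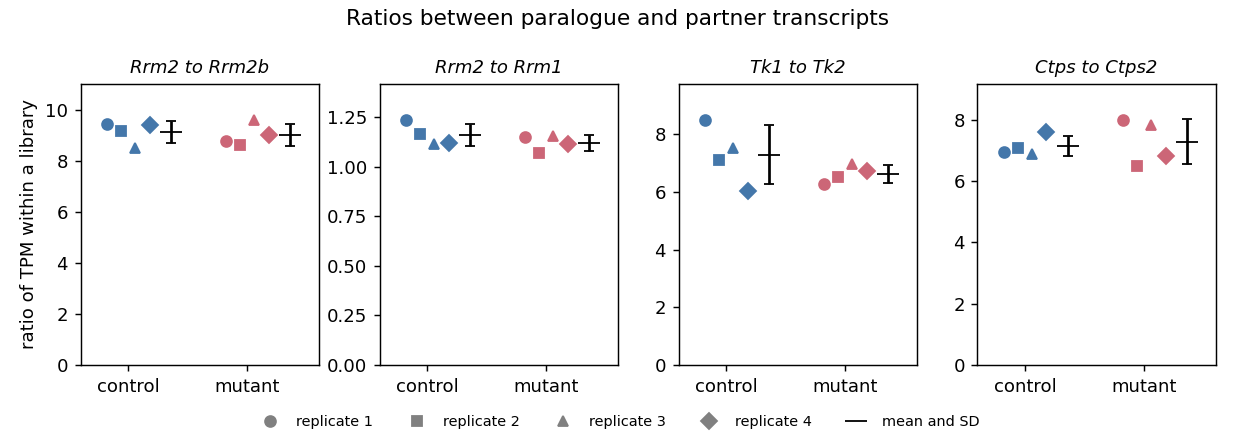
Ratio of TPM between paired transcripts within each library (vertical axes, from 0) in 4 control (blue) and 4 mutant (red) libraries, with marker shapes for the replicate number and a black bar for the mean and SD. The groups overlap in all 4 ratios, and Tk1 to Tk2 is the most spread among the controls, from 6.02 to 8.48.

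The summed level of the deoxynucleotide enzymes ranged more widely among the control libraries than among the mutants. The 5 transcripts Tyms, Rrm1, Rrm2, Tk1 and Dut summed to 483, 454, 426 and 435 TPM in control replicates 1 to 4 and to 460, 440, 451 and 459 TPM in mutant replicates 1 to 4, so the sums of all mutants lay inside the control range. This sum follows its most abundant transcripts, Rrm2 and Rrm1, and does not show the single genes. Tyms and Rrm1 lay above every control in 3 of 4 mutants each, Dut in 1, and Rrm2 and Tk1 in 0. Control replicate 1 was the highest control for 5 of 5, whereas it was the highest for 31.5% of all tested genes. Control replicate 3 was the lowest control for 4 of 5, whereas it was the lowest for 35.3% of all tested genes. For 5 of 5 the SD on the log2 scale was larger in the controls than in the mutants, as it was for 47.7% of all tested genes.

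Other measures also differed between these libraries. A list of 39 genes of S phase and of E2F regulation, Pcna, Mcm2 and Ccne1 among them and none of the 9 enzymes, had its highest control value in control replicate 1 for 31 of 39 genes and its lowest in control replicate 3 for 20 of 39. Its mean log2(TPM + 1) was 5.67, 5.58, 5.56 and 5.59 in the controls and 5.66, 5.62, 5.60 and 5.61 in the mutants. Haemoglobin genes held 0.493%, 0.638%, 0.780% and 0.848% of the listed TPM in control replicates 1 to 4 and 0.471% to 0.641% in the mutants. Mitochondrially encoded genes held 12.9%, 14.0%, 15.0% and 13.6% in the controls and 12.9% to 14.1% in the mutants. The part of the haemoglobin and mitochondrial measures in the spread of the enzymes was not tested. The S phase mean was only correlated with each enzyme, as given below. In bulk tissue, fewer cells in S phase and less RNA per cell cannot be told apart.

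**Figure D4:**
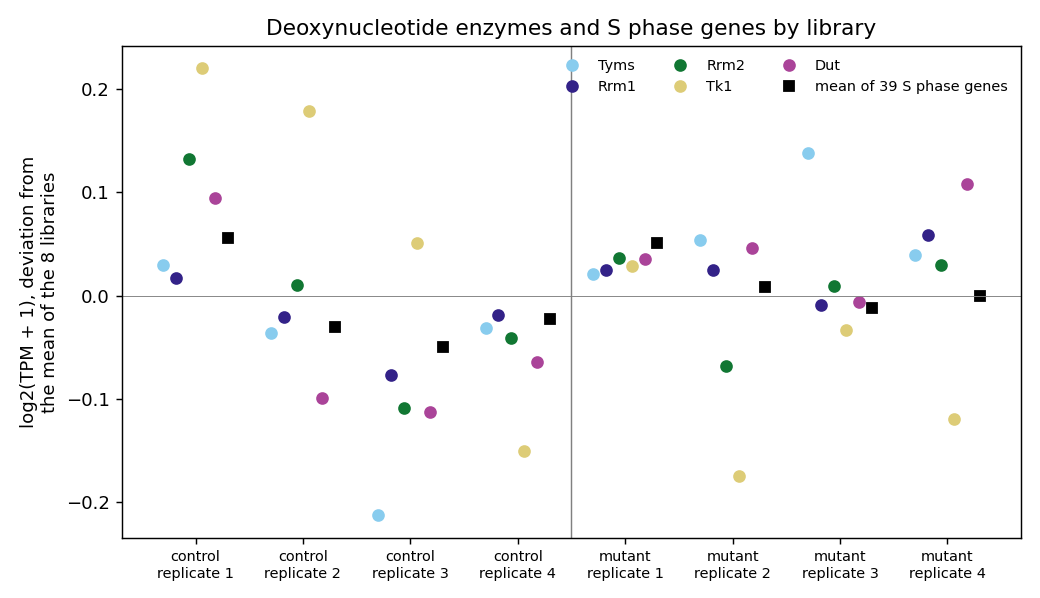
Deviation of log2(TPM + 1) from the mean of the 8 libraries (vertical axis) for the 5 deoxynucleotide enzymes (circles) and for the mean of 39 S phase genes (black squares), in the control libraries left of the grey line and the mutant libraries right of it. All 5 enzymes and the S phase mean are above 0 in control replicate 1, while 4 of the 5 and the S phase mean are below 0 in control replicate 3, where Tk1 is the exception.

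Across the 8 libraries, which share the scaling of TPM, the level of each enzyme was correlated with the S phase mean. Pearson's r ran from 0.21 for Tk1 to 0.79 for Dut over the 9 relations. For Dut r was 0.79 (exact permutation p of 0.0220, adjusted 0.104) and Spearman's rho 0.83 (exact permutation p of 0.0154, adjusted 0.110). For Rrm1 r was 0.69 (exact permutation p of 0.0579, adjusted 0.104) and rho 0.79 (exact permutation p of 0.0279, adjusted 0.110). Without control replicate 1 and mutant replicate 1, the farthest from the median S phase level, r over the remaining 6 libraries was 0.90 for Dut and 0.91 for Rrm1. For Umps r was 0.74 with all 8 (exact permutation p of 0.0391, adjusted 0.104) and 0.73 over the 6. Over the same 6 it was 0.42 for Rrm2, from 0.75 with all 8, and 0.00062 for Ctps, from 0.72, so those relations rested on these libraries. Tk1 went from 0.21 to -0.69, and Tyms from 0.53 to 0.83. None of the 9 relations passed after adjustment over the 9, a count of 0, and 4 had an unadjusted exact permutation p below 0.05 for r. These values pool both genotypes. With the mean of each group removed, r over the 8 libraries was 0.50 for Tk1, and ran from 0.31 for Dhodh to 0.79 for Rrm2 over the 9.

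The transcripts most like each branch over the 8 libraries were also sought, among 11618 tested genes with a mean of at least 5 TPM. For the mean standardised level of the 5 deoxynucleotide enzymes they were Ska3, a kinetochore gene (r of 0.98, 20.4 ± 2.03 TPM in controls and 21.2 ± 0.626 TPM in mutants), Nr4a1, an immediate early nuclear receptor gene (r of 0.97), and Metap1, for a methionine aminopeptidase (r of 0.96). For Cad, Dhodh, Umps and Ctps together they were Prr5 (r of 0.98), Lrrc59 (r of 0.98) and Golga2 (r of 0.97). In all, 28 genes had an r above 0.9 with the deoxynucleotide enzymes and 73 with the others. With 8 libraries and this many genes, such values are a description and carry no test.

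The enzymes around the pathway were examined by list. None of the listed genes passed the adjusted threshold, a count of 0 in each of 9 lists, and the smallest adjusted p among those reported was 0.780 (limma). Of the 7 paralogues and partners, 3 were higher and 4 lower, with a median log2 fold change of -0.0012. In 1 of the 7 the unadjusted p was below 0.05, against 6.10% of all genes. That gene was Dctd, for the deaminase that turns dCMP into the dUMP used by thymidylate synthase. It held 42.1, 47.3, 41.9 and 47.2 TPM in the controls and 50.7, 54.4, 46.8 and 49.9 TPM in the mutants, with 3 of 4 mutants above every control. The difference was 0.17 on the log2 scale (standard error 0.060, unadjusted p of 0.0161, limma adjusted p of 0.780).

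The remaining partners differed little. Dck, the deoxycytidine kinase of the salvage route, averaged 36.3 ± 0.326 TPM in controls and 36.2 ± 0.940 TPM in mutants (SD, 4 libraries each), with a log2 fold change of -0.0012. Dtymk, which phosphorylates dTMP, had a log2 fold change of -0.021, and Samhd1, which degrades deoxynucleotides, 0.015. The sign of the values for Ctps2, Dck, Dtymk, Rrm2b, Samhd1 and Tk2 turned in at least 1 fit that left out a library.

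Genes that supply the pathway with glutamine, aspartate and ribose phosphate held the most low p-values. Of 10 such genes, 3 had an unadjusted p below 0.05, 2 higher and 1 lower, against 6.10% of all genes, and the median log2 fold change was 0.0014. That count was not stable: it was below 3 in 10 of the 16 alternatives, and 0 without control replicate 3, without control replicate 4 and with no variance trend. Slc25a13, a mitochondrial carrier that exports aspartate, averaged 76.3 ± 2.66 TPM in controls and 81.8 ± 3.06 TPM in mutants (SD, 4 libraries each), or 0.10 on the log2 scale. Prps1, for a PRPP synthetase, held 51.4 ± 1.11 and 54.9 ± 2.19 TPM, or 0.092 on that scale, and both had a limma adjusted p of 0.809. Glul, for glutamine synthetase, was the lower one, singled out here after its values were seen. Its values were 55.8 to 59.9 TPM in controls and 52.8 to 55.6 TPM in mutants. It was the 1 gene of the 10 without overlap, against 3.68% of all tested genes. The log2 fold change was -0.084, with a limma adjusted p of 0.809. Over the 16 alternatives in limma, Slc25a13 had an unadjusted p below 0.05 in 12, and Prps1 and Glul in 8 each.

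Salvage and breakdown enzymes did not move together. Of 21 listed genes 18 were tested, 8 higher and 10 lower, with a median log2 fold change of -0.00071. Dpyd, Dpys and Upb1, which carry the breakdown of uracil and thymine, stayed under 1 TPM in every library and were not tested. Tymp, the thymidine phosphorylase, ranged from 5.78 to 6.59 TPM in controls and from 3.13 to 5.75 TPM in mutants, without overlap. It was the 1 gene of the 18 without overlap, against 3.68% of all tested genes, and the groups were only narrowly apart. Its log2 fold change was -0.28 (limma unadjusted p of 0.0922, adjusted p of 0.843). That size rested on mutant replicate 3, without which it was -0.11. Dguok, the mitochondrial deoxyguanosine kinase, differed by 0.16 on the log2 scale (adjusted p of 0.862), and by 0.071 without control replicate 2.

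The other lists had no gene at an unadjusted p below 0.05, a count of 0 in each of 6. In the alternatives the count reached 5 for the S phase list, without control replicate 1, and 1 for the nucleotide kinases, and it stayed at 0 for the other 4 lists. Of the 23 genes named from the lists other than the enzymes and their partners, 19 moved by over 1.5 times when 1 library was left out, the exceptions being Fen1, Glul, Prps1 and Slc25a13. Among 10 nucleotide kinases and CTP synthesis genes, 4 were higher and 6 lower, with the smallest p-values for Nme3 at -0.14, Nme6 at 0.21 and Cmpk1 at 0.070 on the log2 scale. With 1 library left out they ran from -0.19 to -0.079, from 0.10 to 0.29 and from 0.035 to 0.12. Among 6 genes of the electron supply to ribonucleotide reductase, 5 were higher and 1 lower, led by Txn1 at 0.092, Txnrd1 at 0.075 and Glrx, the lower one, at -0.051. Among 4 folate cycle genes, 2 were higher and 2 lower, led by Mthfd1 at 0.051, Mthfs at 0.13 and Shmt2 at -0.041, and the sign of Mthfs and Shmt2 turned in at least 1 fit that left out a library. Of 8 nucleoside and pyrimidine nucleotide transporters 5 were tested, 2 higher and 3 lower, led by Slc29a1 at -0.069, Slc29a3 at -0.075 and Slc29a2 at -0.16. Slc28a1, Slc28a2 and Slc28a3, the concentrating nucleoside transporters, stayed under 1 TPM in every library.

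In the S phase list 29 of 39 genes had a log2 fold change above 0 and 10 below, with a median of 0.032 and none past the threshold. Of all tested genes 48.2% lay above 0, with a median of -0.0033. The genes of the list shared their high and low control libraries, with control replicate 1 the highest control for 31 of 39, so their signs are not independent. Its smallest p-values belonged to Fen1 at 0.11, Ccna2 at 0.088 and Pcna at 0.079 on the log2 scale, with limma adjusted p-values from 0.823 to 0.841. Of 6 genes of the Myc family and its partners, which bind E-boxes, 5 were tested, 3 higher and 2 lower, led by Mxd3 at 0.11, Mnt at -0.082 and Mycn at 0.047. With 1 library left out these ran from 0.042 to 0.16, from -0.12 to -0.042 and from 0.0082 to 0.077. Mycl stayed under 1 TPM in every library.

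Markers of the cell types a dissected ventricle can hold overlapped between genotypes in summed TPM. The erythroid markers ranged from 3971 to 6733 in the controls and from 3714 to 5221 in the mutants, the cardiomyocyte markers from 26346 to 27739 and from 25353 to 27238, and the endocardial and endothelial markers from 569 to 617 and from 555 to 614. Epicardial markers ranged from 221 to 249 and from 218 to 242, mesenchymal markers from 279 to 357 and from 273 to 322, and macrophage markers from 4.04 to 9.05 and from 3.19 to 5.05. Neuronal markers reached at most 15.0 and 11.3, and the hepatocyte markers Alb, Afp, Apoa1 and Ttr stayed under 1 TPM each in every library. Such sums follow their most abundant genes and do not show the single markers. Hbb-y at -0.47, Tbx18 at -0.16 and Nkx2-5 at 0.11 on the log2 scale had an unadjusted p below 0.05, against 6.10% of all genes. They were 1 of 7 erythroid, 1 of 5 epicardial and 1 of 9 cardiomyocyte markers, picked by p-value, and are no result on a cell type. Of the other cardiomyocyte markers, Myh6, Myh7, Myl2 and Myl3 were lower in the mutants, and Tnnt2, Actn2, Tnni1 and Ttn were higher. The epicardial marker Wt1 was higher at 0.00043, while Tcf21, Upk3b and Aldh1a2 were lower. Their limma adjusted p-values were 0.783, 0.809 and 0.780. The erythroid markers Klf1 and Hbb-bh1 were higher in the mutants, at 0.33 and 0.068.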

How the data were processed

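Libraries of 4 control and 4 Atf4 mutant ventricle samples were grouped by sample title. The values are TPM as deposited by the authors, 1 column per library. The submitters' processing notes name GRCm38, Trim Galore 0.6.7, HISAT2 2.2.1, StringTie 2.2.1, featureCounts, FastQC and DESeq2 without the role of each, and the counting of shared or opposite-strand reads is not given in the sources used here. The labels disagree on poly(A) selection against ribosomal RNA depletion. Coordinates are those of the table, counted from 1, and equal the RefSeq spans on GRCm38.p6 for all 9 enzymes.

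The 15545 genes that reached 1 TPM in 4 or more libraries were fitted as log2(TPM + 1), which understates changes of low genes. The fit used limma 3.58.1 (R 4.3.3) with a variance trend and no covariate. Its p-values are two-sided and adjusted over all genes by Benjamini-Hochberg, with a threshold of 0.05, and the fit was tested on simulated data. Ratios and correlations were tested by exact two-sided permutation in Python 3.11.15. Named are the 9 enzymes, Atf4, the paralogues and partners, up to 3 genes per other list by smallest p, and the 3 genes most like each branch. Of the listed genes, 5 are not reported here, and counts over lists leave them out. The members and lists were chosen with earlier results of these data known. Alternatives changed the pseudocount to 0.1, dropped the filter or raised it to 5 TPM, applied median-of-ratios scaling, quantile normalization or rescaling without mitochondrial and haemoglobin genes, dropped the variance trend, added the replicate number as a block, or left out each library in turn.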

Additional observations from a re-analysis of the deposited data

Results flagged for a closer look

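Groups of 4 libraries were searched for 1 library standing far from the other 3, in 100 groups over the genes named and the 4 ratios. This occurred 3 times, where the 5% rate of the test gives 5 by chance, and in none of the 9 enzymes. Mutant replicate 1 stood apart for Tk2, at 10.5 TPM over 8.74 to 9.02 TPM, and without it the log2 fold change was -0.077 in place of -0.022. The same library stood apart for Txnrd1, at 90.0 TPM over 80.2 to 81.5 TPM, and without it the log2 fold change was 0.037 in place of 0.075. Tymp was lowest in mutant replicate 3, at 3.13 TPM under 5.42 to 5.75 TPM.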

How the results depend on the processing

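The count of enzymes past the adjusted threshold was 0 in all 16 alternatives, as was the count over the paralogues and pathway lists. At an unadjusted p below 0.05, Tyms passed with median-of-ratios scaling (0.0374) and quantile normalization (0.0337), Tyms and Dut without control replicate 1, and Tk1 without control replicate 4. The sign held in all 16 for Dhodh, Umps, Tyms, Rrm1, Tk1 and Dut. With 1 library left out, the log2 fold change ran from -0.032 to 0.048 for Rrm2, from -0.0038 to 0.086 for Cad and from -0.017 to 0.042 for Ctps. It also ran from -0.035 to 0.027 for Ctps2, from -0.015 to 0.011 for Dck, from -0.073 to 0.018 for Dtymk, from -0.0012 to 0.052 for Rrm2b, from -0.012 to 0.052 for Samhd1, from -0.077 to 0.018 for Tk2, from -0.015 to 0.24 for Mthfs, from -0.10 to 0.021 for Shmt2 and from -0.033 to 0.18 for Nr4a1. The log2 ratio difference ran from -0.21 to -0.055 for Tk1 to Tk2 and from -0.020 to 0.075 for Ctps to Ctps2. Quantile normalization turned Rrm2 to -0.0038 and Ctps2 to 0.00043, rescaling without mitochondrially encoded and haemoglobin genes turned Rrm2 to -0.0016, and median-of-ratios scaling turned Dck to 0.0059. Over all genes, the 6 calls became 0 with no filter and with no variance trend, and 0 to 3 with 1 library left out; the cause was not tested. With the replicate number as a block the calls over all genes also fell to 0, and the enzymes stayed at 0. Same-numbered libraries correlated from -0.082 to 0.035 in their deviations, and the other pairs from -0.054 to 0.057. In all, 2 of 8 libraries correlated best with their own number. These values cannot show whether same-numbered samples shared anything beyond the number. TPM keeps no depth, so the counting error of each value is unknown.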
